A study of Mus musculus with 48 samples.

Results

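The livers of male control mice on a high fat diet and of male control mice moved to one that adds cholesterol and fructose to the fat were compared by RNA-seq. The comparison holds 12 of the 48 libraries of the series, chosen by sample title: 6 from the high fat group (HF) and 6 from the high fat, cholesterol and fructose group (HFCF). All 25814 genes of the deposited count table of this comparison were used, out of 29034 genes in the tables joined for the other groups, and 14475 of them had enough reads to be tested. Both groups carried a floxed Pparg gene and had received AAV8-TBG-null after 16 weeks on diet, that is, an adeno-associated virus with the hepatocyte promoter TBG and without Cre, so the gene was left intact by design. HF mice ate the high fat diet for 34 weeks, and the labels give their disease state as liver steatosis. HFCF mice ate it for 18 weeks and then the HFCF diet for 16 weeks, and are labelled as having non-alcoholic steatohepatitis. The other 8 groups of the study differ in sex, diet or the labelled loss of Pparg in hepatocytes. RNA came from whole liver, so every value is a mixture of hepatocytes, immune cells, stellate cells, endothelium and bile duct cells, and more cells of a type cannot be told apart from more RNA per cell.

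Cells hold their cholesterol steady through SREBP2, a membrane-bound transcription factor that is cleaved when sterols are scarce and then switches on the enzymes of cholesterol synthesis and genes of cholesterol uptake. Sterol excess keeps SREBP2 in the endoplasmic reticulum, while oxysterols activate LXR, a nuclear receptor whose targets move cholesterol out of cells and into bile. Injured fatty liver recruits macrophages that take up lipid, and activated stellate cells lay down collagen.

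Depth was 15636783 to 22072832 reads on genes per library. HFCF replicate 1 stood apart from the other 5 HFCF livers. On the first principal component of log2 CPM, which carried 49% of the variance, it scored -26.69, inside the HF range of -39.41 to -11.05, while HFCF replicates 2 to 6 scored 23.86 to 41.98. Its Spearman correlations with its own group were 0.973 to 0.981 and those with HF livers 0.986 to 0.989, whereas HFCF replicates 2 to 6 reached 0.99 to 0.993 among themselves. The library keeps its label in every test below, and the counts of the gene lists are also given without it.

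**Figure D1:**
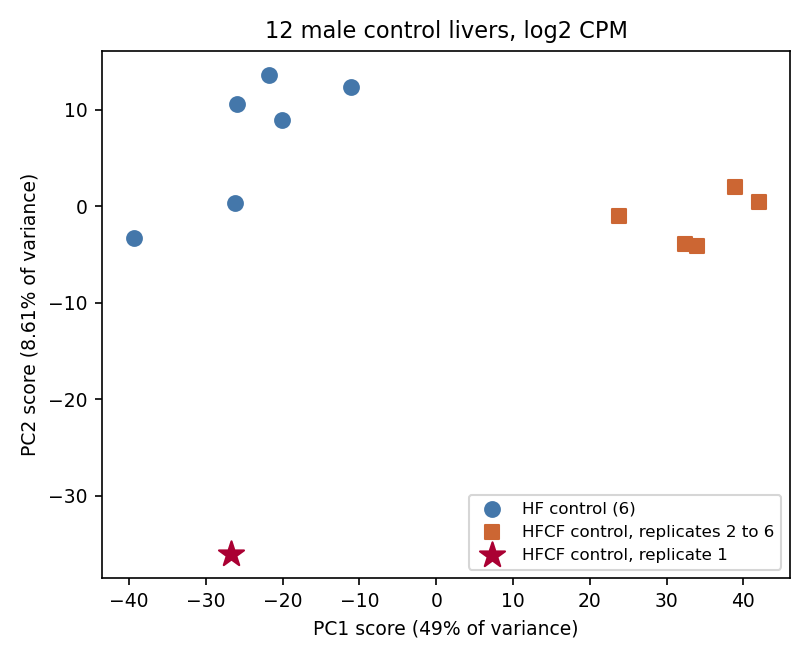
Scores of the 12 libraries on the first (49% of variance) and second (8.61%) principal components of log2 CPM. Circles are HF livers, squares HFCF replicates 2 to 6, and the star is HFCF replicate 1, which lies at -26.69 on the horizontal axis, among the HF livers, and at -36.03 on the vertical axis, below all others.

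In the fit to the 12 libraries, 3225 of 14475 genes (22.3%) differed at an adjusted p under 0.05 by edgeR's quasi-likelihood test with Benjamini-Hochberg adjustment. Of these, 1877 (13.0%) were higher and 1348 (9.31%) lower in HFCF livers, and the median log2 fold change over all genes was 0.01. Without HFCF replicate 1 the count was 5429 of 14665 (37.0%), with 2878 (19.6%) higher and 2551 (17.4%) lower, and it held 3219 of the 3225. The largest count with 1 other library left out was 3029. All 6 HFCF libraries lay above all 6 HF libraries for 259 genes (1.79%) and below them for 387 (2.67%), so 646 (4.46%) did not overlap. The p-values measure the spread between these livers, and the labels do not say how the mice were housed or grouped.

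Cholesterol synthesis moved as a block: all 20 enzymes of the list fell, from acetyl-CoA to cholesterol, with a median log2 fold change of -1.36. The count is the same 20 of 20 without HFCF replicate 1 (median -1.41), and for 14 of the 20 the groups did not overlap. Of all genes tested, 9.31% were called lower, and 17.4% without that library. All 6 HFCF libraries lay below all 6 HF libraries for 2.67% of all genes. Sqle, squalene epoxidase (ENSMUSG00000022351, GRCm38 chromosome 15, 59315077 to 59331192), ranged from 29.4 to 157 CPM in HF livers (median 96.8) and from 9.1 to 22.5 CPM in HFCF livers (median 16.4). No HFCF liver reached the lowest HF liver, although the HF livers themselves spread over a wide range. The log2 fold change was -2.61 (SE 0.37, adjusted p 0.00083), a 6.09-fold lower level. Idi1, which isomerises isopentenyl diphosphate, fell from a mean of 80.6 ± 38.9 CPM (SD, n = 6) to 13.3 ± 3.5 CPM, a log2 change of -2.61, and 9.2% of its exonic length is shared with the predicted gene Gm48574. Msmo1, a sterol C4-methyl oxidase, had the smallest p of the list (log2 fold change -2.07, SE 0.22, adjusted p 0.000122). Mvd (-2.0), Cyp51 (-1.89), Nsdhl (-1.68) and Hsd17b7 (-1.34) were also without overlap. At the small end was Ebp, a sterol isomerase (-0.40, adjusted p 0.0158), for which HFCF replicate 1 lay in the HF range. Fdft1 shares 18.3% of its exonic length with Ctsb, and reads from that part are hard to assign to either gene.

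Regulators and uptake genes of the same system were lower in 7 of 13 members and higher in 2 (69.2% called, beside 22.3% of all genes). The counts were 7 and 3 without HFCF replicate 1. Stard4, a cytosolic sterol carrier, fell by 1.19, and Insig1, which retains the SREBP escort, by 1.13. Srebf2, which encodes SREBP2, fell by 0.55 (adjusted p 0.00238), with 84.7 to 125 CPM in HF livers and 64.2 to 81.3 CPM in HFCF livers. Scap, the SREBP escort, and Npc1, a lysosomal cholesterol exporter, fell by 0.36 and 0.32. The 2 that rose were Soat1, an acyltransferase that makes cholesteryl esters (log2 fold change 0.96, adjusted p 0.00257), and Scarb1, the HDL receptor (0.20, adjusted p 0.0471). Soat2, the form of hepatocytes, was at 0.10 (adjusted p 0.242).

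Promoters of these genes were read because the members moved together. RefSeq promoters on GRCm38.p6, from 250 bases before to 50 after the start, were matched for 18 of the 27 cholesterol synthesis and sterol sensing genes that fell. The sterol regulatory element TCACNCCAC, searched on both strands, was found in 1 of the 18 (5.56%) against 1.44% of all 27025 genes with a promoter. CCAAT or its reverse complement ATTGG, which NF-Y binds, was found in 16 of the 18 (88.9%) against 41.1% of all, and the E box CACGTG in 5 of the 18 (27.8%) against 8.09% of all. Over the 10797 tested genes with a promoter the shares were 1.47%, 42.6% and 11.4%. CCAAT was also in all 3 promoters matched for list members that were not called, and in that of Soat1, which rose. These are matches of letters in a window, not sites shown to be bound. The promoter with the sterol element, that of Hmgcs1 (HMG-CoA synthase, chr13:119690101-119690400, plus strand, log2 fold change -1.63), is shown with those of Idi1 (chr13:8885356-8885655, plus strand) and Msmo1 (chr8:64733529-64733828, minus strand), which were picked after their values were seen as the members with a promoter that fell most. Capitals mark TCACNCCAC and CCAAT on either strand.
Hmgcs1: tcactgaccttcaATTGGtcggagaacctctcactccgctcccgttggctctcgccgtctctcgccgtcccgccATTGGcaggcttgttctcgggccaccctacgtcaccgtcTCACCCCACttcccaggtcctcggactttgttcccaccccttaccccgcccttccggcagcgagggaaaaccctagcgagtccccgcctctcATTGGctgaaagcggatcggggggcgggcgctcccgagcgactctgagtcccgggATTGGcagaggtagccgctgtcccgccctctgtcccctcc
Idi1: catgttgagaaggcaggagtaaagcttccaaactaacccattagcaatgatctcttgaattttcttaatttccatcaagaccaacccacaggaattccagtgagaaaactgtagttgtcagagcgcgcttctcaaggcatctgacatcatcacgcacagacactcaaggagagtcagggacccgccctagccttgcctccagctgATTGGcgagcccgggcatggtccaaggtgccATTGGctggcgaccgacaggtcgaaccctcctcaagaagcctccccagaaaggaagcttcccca
Msmo1: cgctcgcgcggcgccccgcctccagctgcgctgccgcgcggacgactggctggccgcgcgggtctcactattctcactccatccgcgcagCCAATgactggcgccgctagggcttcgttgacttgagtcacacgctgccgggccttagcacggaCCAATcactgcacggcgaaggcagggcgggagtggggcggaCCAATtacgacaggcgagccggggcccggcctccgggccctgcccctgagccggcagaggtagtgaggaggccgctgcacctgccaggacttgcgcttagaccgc
The sterol element of Hmgcs1 lies in the same 300 bases as 4 CCAAT matches, and Msmo1 and Idi1 hold 3 and 2 CCAAT matches with no match to TCACNCCAC.

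Among LXR targets, 5 of 12 rose and none fell (41.7% called, beside 22.3% of all genes), with a median of 0.26. These were 5 higher, 1 lower and 0.12 without HFCF replicate 1, where 37.0% of all genes were called. Lpl, lipoprotein lipase (ENSMUSG00000015568, chromosome 8, 68880491 to 68907448), lay at 36.2 to 68.2 CPM in HF livers (median 45.9) and at 104 to 341 CPM in HFCF livers (median 240). HFCF replicate 1 was the lowest of its group at 104 CPM and still above every HF liver. The log2 fold change was 2.30 (SE 0.23, adjusted p 7.65e-05). Abcg5, a canalicular sterol exporter, rose by 0.61 (SE 0.12, adjusted p 0.00335) with HFCF replicate 1 highest at 210 CPM, and by 0.48 without it. Its partner Abcg8 was at 0.31 with an adjusted p of 0.136, and 0.14 without that library. Abcg1, a cholesterol exporter of macrophages and other cells, rose by 1.29 (adjusted p 0.000292), and Abca1, which loads cholesterol onto nascent HDL, by 0.31 (adjusted p 0.00429). Srebf1, the lipogenic SREBP gene and an LXR target, was at 592 ± 105 CPM in HFCF livers and 511 ± 82.5 CPM in HF livers (SD, n = 6 each, adjusted p 0.217). Macrophage markers, given below, were higher in the same livers, and their part in the values of Lpl and Abcg1 was not tested.

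**Figure D2:**
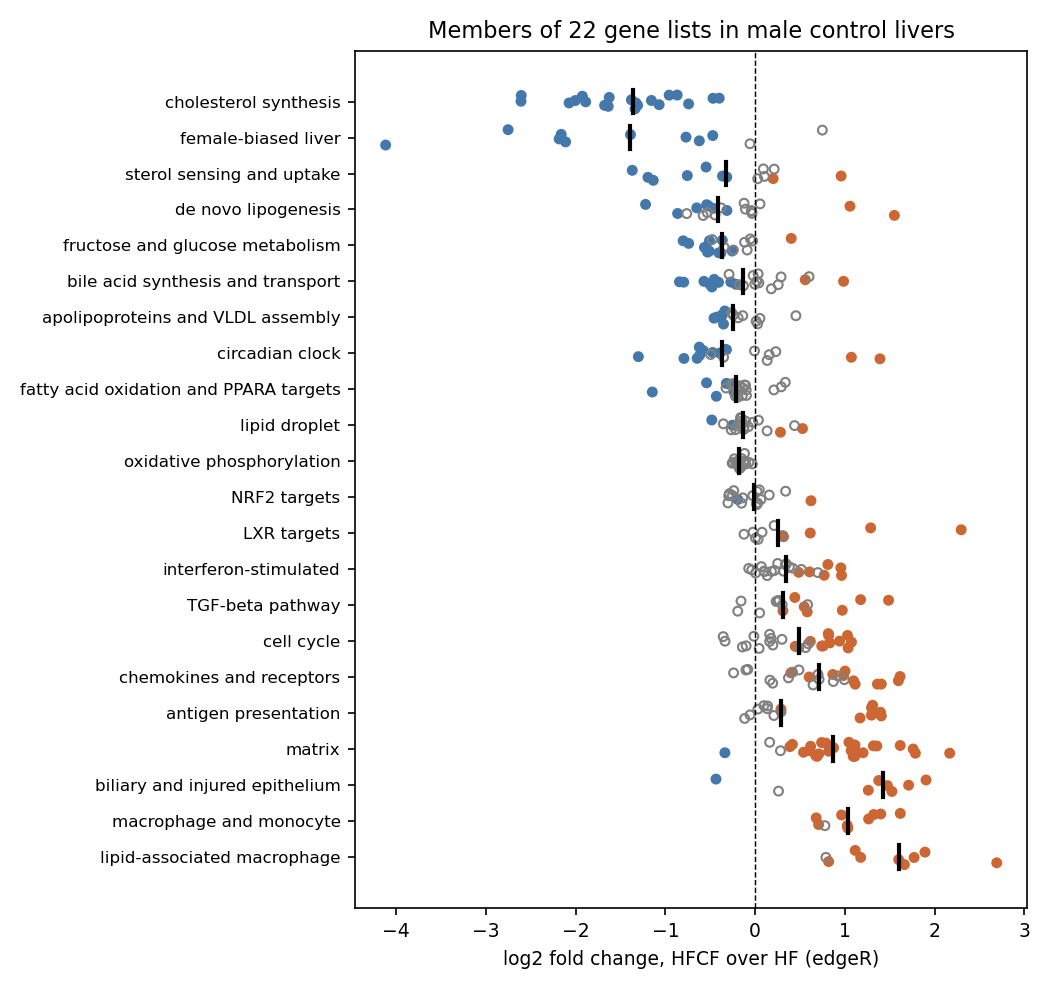
Members of 22 gene lists. Each point is 1 tested member at its log2 fold change, HFCF over HF; filled points are called at an adjusted p under 0.05 (orange higher, blue lower), open points are not, and black bars are list medians, from -1.39 for female-biased genes to 1.60 for lipid-associated macrophage genes.

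Fatty acid synthesis did not move as a block. Of 20 genes of de novo lipogenesis and triglyceride synthesis, 2 rose and 7 fell (45% called, beside 22.3% of all genes), with a median of -0.41. Both that rose are desaturases. Scd1, stearoyl-CoA desaturase (ENSMUSG00000037071, chromosome 19, 44394451 to 44407709), ranged from 16980 to 26780 CPM in HF livers (median 20265) and from 29790 to 68270 CPM in HFCF livers (median 40740). The highest value belonged to HFCF replicate 1, and no HFCF liver overlapped the HF group. The log2 fold change was 1.06 (SE 0.18, adjusted p 0.00195), and 0.88 without HFCF replicate 1. Scd2, its paralog, had the smallest p of all genes (log2 fold change 1.55, SE 0.11, adjusted p 4.35e-06), at 17.8 to 27.9 CPM in HF and 54.7 to 76.2 CPM in HFCF livers. Lpin1, a phosphatidate phosphatase, fell by 1.22, Gpam, the mitochondrial glycerol-3-phosphate acyltransferase, by 0.65, Dgat2, which makes triglyceride, by 0.54, and Fads1, a polyunsaturated fatty acid desaturase, by 0.52. Fasn, fatty acid synthase, spread widely in both groups, at 774 to 2269 CPM in HF and 505 to 1451 CPM in HFCF livers, and its log2 fold change of -0.38 had an adjusted p of 0.345. Without HFCF replicate 1, Acly, Acss2, Acacb and Elovl6 were called lower as well, which made 11 of 20 lower, beside 17.4% of all genes.

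Sugar metabolism genes were lower in 10 of 18 members and higher in 1 (61.1% called, beside 22.3% of all genes). The counts were 12 and 1 without HFCF replicate 1, where 37.0% of all genes were called. Slc2a2, the hepatocyte glucose transporter, fell without overlap, from 520 to 618 CPM in HF livers to 362 to 423 CPM in HFCF livers (log2 fold change -0.53, SE 0.06, adjusted p 0.000235). Pklr, liver pyruvate kinase, fell by 0.74, with 22% of its exonic length shared with Hcn3. Khk, ketohexokinase, which starts fructose breakdown, fell by 0.37 (adjusted p 0.00986), and Slc2a5, a fructose transporter at 7.02 ± 1.78 CPM in HFCF and 12.2 ± 3.44 CPM in HF livers, by 0.80 (adjusted p 0.00848). For both of these, HFCF replicate 1 lay in the HF range. Pfkfb3, a regulator of glycolysis, was the member that rose (0.40, adjusted p 0.00838, but 0.0629 when all 4 male groups share 1 fit).

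In bile acid metabolism 9 of 23 members fell and 2 rose (47.8% called, beside 22.3% of all genes). The counts were 12 and 2 without HFCF replicate 1, where 37.0% of all genes were called. Cyp7a1, the rate-limiting enzyme of bile acid synthesis, was at 48.1 to 116 CPM in HF livers (median 85.9) and at 86 to 234 CPM in HFCF livers (median 164). The ranges overlapped, and the rise of 0.99 (SE 0.26) had an adjusted p of 0.0147. Cyp8b1, which sets the share of cholic acid, was at -0.48 with an adjusted p of 0.0407, a call that 10 of 12 fits with 1 library left out did not keep. Slc10a1, the sodium-dependent bile acid importer, fell by 0.84, Akr1d1, a reductase of bile acid synthesis, by 0.80, and Nr1h4, the bile acid receptor FXR, by 0.46 (adjusted p 0.00142).

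Genes of fatty acid oxidation and PPARA targets had 7 lower of 24 (29.2%, beside 9.31% of all genes) and none higher. The count was 16 lower without HFCF replicate 1, where lower calls over all genes also went up, to 17.4%. Ppara, the receptor, fell by 0.54 (adjusted p 0.00183), Cyp4a14, an omega-hydroxylase with close paralogs, by 1.15, and Cpt1a, the mitochondrial gate for fatty acids, by 0.29. Apolipoprotein and VLDL genes had 6 lower of 14 (42.9%, beside 9.31% of all genes), among them Apob (log2 fold change -0.37, no overlap) and Lcat (-0.35). The count was 9 without HFCF replicate 1, beside 17.4% of all genes. Lipid droplet genes had 2 higher and 2 lower of 21 (19%, beside 22.3% of all genes), but 3 higher and 9 lower without HFCF replicate 1 (beside 19.6% and 17.4% of all genes). Pparg, the floxed gene, was at 33.9 ± 5.68 CPM in HFCF and 35.7 ± 4.06 CPM in HF livers (adjusted p 0.657). Cidec, a droplet fusion protein, rose by 0.28 (adjusted p 0.0154, but 0.271 when all 4 male groups share 1 fit), Fabp4, a fatty acid carrier of macrophages and adipocytes, by 0.53, and Hsd17b13, a droplet-bound hepatocyte enzyme, fell by 0.48. Of 20 oxidative phosphorylation subunits 1 was called lower (5%, beside 9.31% of all genes), and 17 without HFCF replicate 1, whose level for 9 of those 17 was in the HF range and for 8 outside both ranges. Of the 6 hepatocyte markers 4 fell (beside 9.31% of all genes), and 5 without HFCF replicate 1 (beside 17.4%). The summed level of the 6 was 55370 CPM in HFCF replicate 1, 33750 to 51400 CPM in the other HFCF livers and 56130 to 77790 CPM in HF livers. Alb, albumin, was at 60109 ± 8147 CPM in HF and 38066 ± 6811 CPM in HFCF livers (log2 fold change -0.66, adjusted p 0.00517). The part of the lower hepatocyte markers in the falls above was not tested.

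Macrophage genes rose. Of 9 markers of lipid-associated macrophages, 8 were called higher with a median of 1.60, and of 10 general macrophage and monocyte markers, 9 with a median of 1.03. Without HFCF replicate 1 all 9 and all 10 were called higher. Of all genes tested, 13.0% were called higher, and 19.6% without that library. Gpnmb, a glycoprotein of lipid-laden macrophages (ENSMUSG00000029816, chromosome 6, 49036546 to 49070929), lay at 7.84 to 19.2 CPM in HF livers (median 13.1) and at 24.1 to 142 CPM in HFCF livers (median 81.6). The low value of 24.1 CPM was HFCF replicate 1, and the other 5 lay between 68 and 142 CPM. The log2 fold change was 2.69 (SE 0.33, adjusted p 0.000292), and 2.88 without that library. Trem2, a lipid-sensing receptor of these cells (ENSMUSG00000023992, chromosome 17, 48346401 to 48354147), was at 4.4 to 9.19 CPM in HF livers, at 22.4 to 38.4 CPM in HFCF replicates 2 to 6 and at 9.09 CPM in HFCF replicate 1. That 1 library overlapped the HF group. Its log2 fold change was 1.89 (SE 0.27, adjusted p 0.000832), and 2.06 without it. Lgals3, a galectin, rose by 1.77, Spp1, osteopontin, by 1.60, Itgax, CD11c, by 1.66 and Cd68, a lysosomal glycoprotein, by 1.11. Cd63, a tetraspanin, was at 0.79 with an adjusted p of 0.0867. Lyz2, lysozyme (1.32), Mpeg1, perforin-2 (1.03), and Itgam, CD11b (1.62), did not overlap between groups, although 68.7% of the exonic length of Itgam is shared with the predicted gene Gm49368.

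Of 7 resident Kupffer cell markers 2 were called (28.6%, beside 22.3% of all genes), both higher, and without HFCF replicate 1 there were 2 higher and 2 lower. Clec4f, their lectin, was at 98.3 ± 22.2 CPM in HFCF and 91.4 ± 25.4 CPM in HF livers (adjusted p 0.722). Cd5l, a secreted scavenger protein, rose by 0.98 (adjusted p 0.0037), and so did Folr2 (0.78, adjusted p 0.0257, a call lost in 4 of 12 fits with 1 library left out), which shares 63.1% of its exonic length with Gm10602. Cd163, the haemoglobin scavenger receptor, averaged 8.25 CPM in HF and 2.03 CPM in HFCF livers, with a log2 fold change of -2.09 and an adjusted p of 0.0767; without HFCF replicate 1 these were -3.73 and 0.000593. Timd4, a phosphatidylserine receptor, was at -1.27 (adjusted p 0.101), and at -1.49 (adjusted p 0.044) without that library.

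Chemokine and receptor genes were higher in 11 of 25 (44%, beside 13.0% of all genes tested), and in 16 without HFCF replicate 1, and none was called lower. Ccr2, the receptor of recruited monocytes, lay at 7.37 to 12.4 CPM in HF livers and at 22.4 to 28.2 CPM in HFCF replicates 2 to 6, with HFCF replicate 1 at 9.34 CPM (log2 fold change 1.36, adjusted p 0.00134). Cx3cr1 and its ligand Cx3cl1 rose by 1.60 and 1.61, and Cxcl16, which shares 18.3% of its exonic length with Zmynd15, by 0.87. The class II antigen presentation genes H2-Ab1 (1.40), H2-Eb1 (1.41), H2-Aa (1.31) and Cd74 (1.30) rose together. Their list had 8 higher of 16 (50%, beside 13.0% of all genes), and 9 without HFCF replicate 1 (beside 19.6%). H2-Ab1 was at 67.5 to 104 CPM in HF livers and 203 to 288 CPM in HFCF replicates 2 to 6, and HFCF replicate 1, at 81.8 CPM, lay inside the HF range. Reads of these polymorphic genes can be hard to assign. Of 23 interferon-stimulated genes 6 rose (26.1%, beside 13.0% of all genes) and 11 without HFCF replicate 1, among them Oas1a, an antiviral synthetase (0.96, no overlap). None of 9 T and NK cell markers and none of 6 B and plasma cell markers was called by this test, and 1 and 0 without HFCF replicate 1; Cd8a was at 0.41 (adjusted p 0.451) and Ighm at 0.50 (adjusted p 0.0988). No call at an adjusted p under 0.05 does not show that these cells were equally frequent.

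Matrix genes rose in 28 of 31 cases, with 1 lower and a median of 0.87 (29 higher and 1 lower without HFCF replicate 1). Of all genes tested, 13.0% were called higher, and 19.6% without that library. Col1a1, the main chain of fibrillar collagen I (ENSMUSG00000001506, chromosome 11, 94936224 to 94953042), was at 53.7 to 114 CPM in HF livers (median 88.3), at 238 to 256 CPM in HFCF replicates 2 to 6 and at 94.9 CPM in HFCF replicate 1. The other 5 HFCF livers were close to each other, while replicate 1 lay inside the HF range. The log2 fold change was 1.36 (SE 0.23, adjusted p 0.00174), and 1.51 without HFCF replicate 1. Col3a1, its partner in scar tissue, rose by 1.20, Lox, which crosslinks collagen, by 2.17, and Mmp12, macrophage elastase, by 1.62. Eln, elastin, was the 1 riser without overlap, at 5 to 7.72 CPM in HF and 11.1 to 28 CPM in HFCF livers (log2 fold change 1.79, SE 0.19, adjusted p 0.000133). Timp1, a protease inhibitor, was at 1.09 with an adjusted p of 0.0235, but 4 of 12 fits with 1 library left out did not call it. Fn1, fibronectin, which hepatocytes secrete into plasma, fell by 0.34 (adjusted p 0.00735). Postn and Col14a1 were not called.

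Of 15 TGF-beta pathway genes 7 rose (46.7%, beside 13.0% of all genes) and none fell, and 10 rose without HFCF replicate 1 (beside 19.6%). Tgfb2, a ligand, rose by 1.49 (adjusted p 0.00224), the receptor genes Tgfbr1 and Tgfbr2 by 0.44 and 0.31, the target gene Id1 by 0.97 and the inhibitory Smad7 by 0.55. Stellate cell markers were mixed, with 4 of 11 higher and 1 lower (45.5% called, beside 22.3% of all genes). The counts were 5 and 1 without HFCF replicate 1, where 37.0% of all genes were called. Acta2, smooth muscle actin of myofibroblasts, rose by 1.24 (adjusted p 0.0026), Pdgfra by 0.78 and Pdgfrb by 0.73, while the list as a whole had a median of 0.26. Of 8 biliary and injured epithelium markers 6 rose and 1 fell, also without HFCF replicate 1, with a median of 1.43. Beside them, 13.0% of all genes were called higher, and 19.6% without that library. Epcam, an adhesion protein of bile duct and progenitor cells, was at 3.05 to 6.07 CPM in HF livers and 10.9 to 21.7 CPM in HFCF replicates 2 to 6, with HFCF replicate 1 at 4.13 CPM inside the HF range (log2 fold change 1.71, SE 0.32, adjusted p 0.00264). Cd24a rose by 1.90 and Sox9, a biliary transcription factor, by 1.26. Cell cycle genes were higher in 11 of 25 (44%, beside 13.0% of all genes), and in 14 with 1 lower without HFCF replicate 1 (beside 19.6% higher of all genes). Ccnd1, cyclin D1, was at 1.07 (no overlap between groups, 23.4% of exonic length shared with LTO1) and Mki67 at 0.74 (adjusted p 0.0107).

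**Figure D3:**
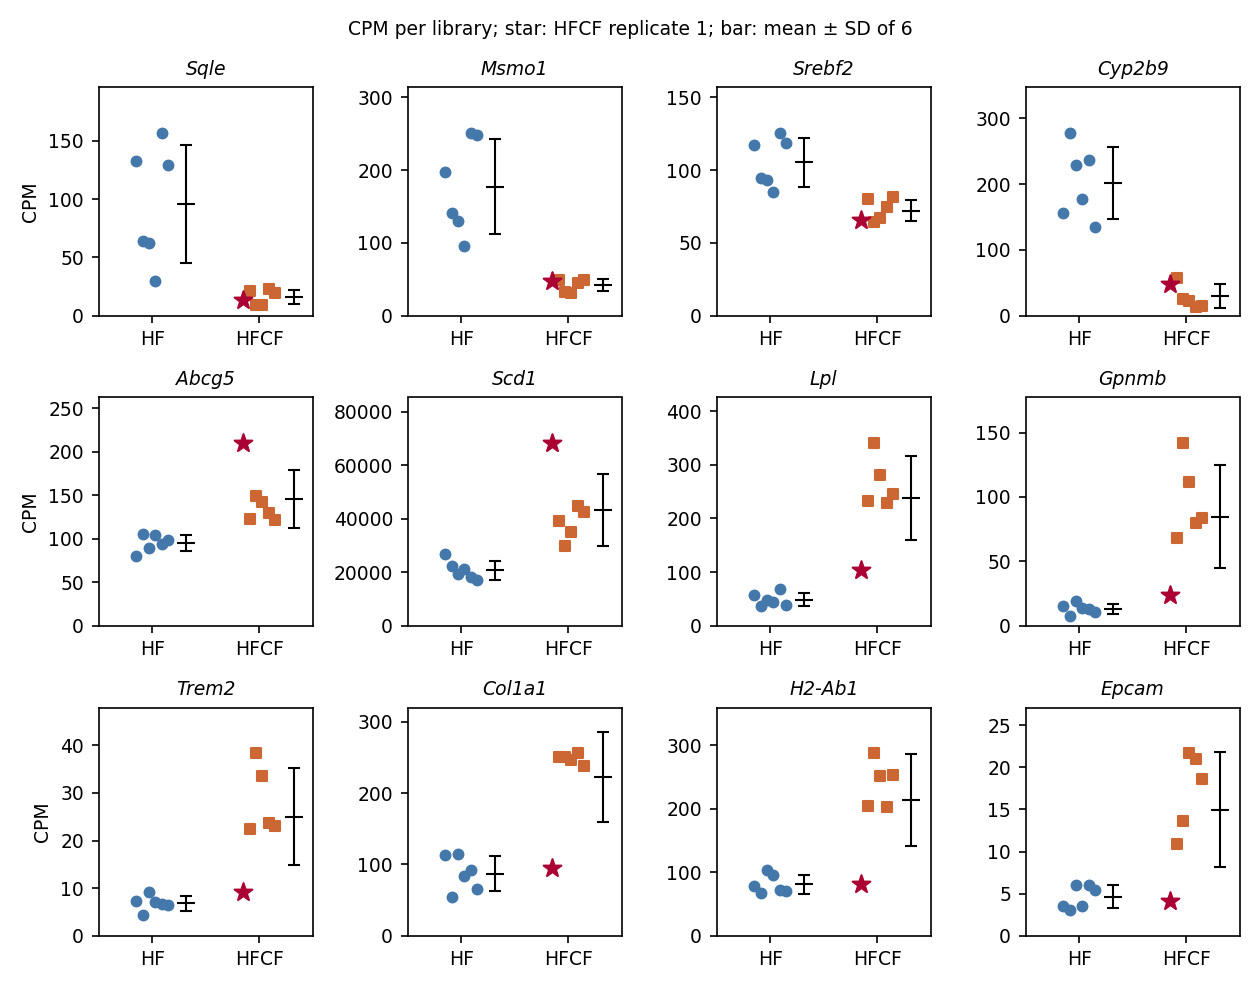
CPM of 12 genes in each library, with every vertical axis starting at 0; circles are HF, squares HFCF replicates 2 to 6, the star HFCF replicate 1, and bars the mean and SD of 6. For Sqle, Msmo1, Srebf2 and Cyp2b9 the star lies with the squares, for Col1a1, H2-Ab1 and Epcam with the circles, and for Abcg5 and Scd1 above both.

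Among called protein-coding genes of at least 1 CPM whose groups did not overlap, the lowest log2 fold changes were those of Cyp2b13, at -4.12, and Cyp2b9, at -2.75, both cytochromes that female livers express more than male livers. Cyp2b9 (ENSMUSG00000040660, chromosome 7, 26173411 to 26210661) lay at 135 to 278 CPM in HF livers (median 204) and at 13.7 to 56.7 CPM in HFCF livers (median 23.4). The groups were far apart (SE 0.33, adjusted p 0.000239), but reads of the paralogs Cyp2b9, Cyp2b10 and Cyp2b13 are hard to tell apart. Of 11 female-biased genes tested 9 fell and none rose, also without HFCF replicate 1, with a median of -1.39. Of all genes tested, 9.31% were called lower, and 17.4% without that library. Hao2, a hydroxyacid oxidase, fell by 2.11 and Acot3, a thioesterase, by 2.18. Of 11 male-biased genes 2 rose (18.2%, beside 13.0% of all genes), and without HFCF replicate 1 there were 3 higher and 2 lower. Those that rose in the full fit were Cyp4a12b, an omega-hydroxylase with the near-identical copy Cyp4a12a, at 1.67 to 8.85 CPM in HF and 24.1 to 69.4 CPM in HFCF livers (log2 fold change 3.12, SE 0.37), and Selenbp2, a selenium-binding protein (0.86, adjusted p 0.0199, but 0.166 when all 4 male groups share 1 fit). Cyp4a12a was at 0.98 with an adjusted p of 0.0711. Among xenobiotic P450 genes and regulators 6 of 20 fell and 2 rose (40% called, beside 22.3% of all genes), and 14 and 2 without HFCF replicate 1 (beside 37.0%). Cyp3a11 rose by 0.65 with no overlap, and Nr1i3, the receptor CAR, fell by 0.97, with 74.9% of its exonic length shared with Tomm40l.

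The highest log2 fold change under the same conditions, 3.51, was that of Asz1, known from germ cells, from a mean of 0.202 ± 0.144 CPM to 2.3 ± 1.41 CPM. At this level 1 HF library had no read. Scube3 (2.56), Insyn1 (2.39), Olfml2a (2.29), Plekhs1 (2.28), Fam198b (2.05), Tmem45a (1.97) and Dync2li1 (1.92) were also among the 12 highest. All of these were under 10 CPM on average, and in each the lowest HFCF liver was above the highest HF liver. Among the 12 lowest were A4gnt, a glycosyltransferase, at -1.99 (4.04 ± 1.28 to 1.02 ± 0.367 CPM), and Ugt1a9, a glucuronosyltransferase, at -1.96, which shares 59.9% of its exonic length with Ugt1a10.

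Of 13 secreted liver signals 2 rose and 3 fell (38.5% called, beside 22.3% of all genes), and 3 and 5 without HFCF replicate 1. Igfbp2, an IGF-binding protein (ENSMUSG00000039323, chromosome 1, 72824503 to 72852474), was at 63 to 114 CPM in HF livers and 192 to 323 CPM in HFCF livers, with HFCF replicate 1 at 290 CPM, well within its group (log2 fold change 1.54, SE 0.16, adjusted p 0.000122). Hamp, hepcidin, the iron hormone, rose by 1.99 (adjusted p 0.00609, but 0.0685 when all 4 male groups share 1 fit), with a wide HFCF range of 34.8 to 347 CPM that overlapped the HF range of 25 to 97.7 CPM. Selenop, selenoprotein P, fell by 0.42 without overlap, with 15.4% of its exonic length shared with Ccdc152. Of 19 acute phase genes 3 rose and 3 fell (31.6% called, beside 22.3% of all genes). The counts were 4 and 3 without HFCF replicate 1, where 37.0% of all genes were called. Lcn2, lipocalin-2, was higher by 0.95 and Saa2 by 0.82, a gene whose reads are hard to tell apart from those of Saa1. Clock genes were lower in 10 of 18 and higher in 2 (66.7% called, beside 22.3% of all genes), and 11 and 2 without HFCF replicate 1. Arntl and Npas2 rose by 1.07 and 1.39, and Per2, Per3, Hlf and Ciart fell by 0.65, 0.79, 0.62 and 1.30. The labels used here give no hour of collection. Of 18 NRF2 targets 1 rose and 1 fell (11.1% called, beside 22.3% of all genes), and 1 and 4 without HFCF replicate 1. Of 21 ER stress genes 4 rose and 1 fell (23.8% called, beside 22.3% of all genes), and 7 and 1 without that library (beside 37.0% of all genes called). Of 14 pericentral and periportal genes 6 fell and 1 rose (50% called, beside 22.3% of all genes), and 10 and 1 without HFCF replicate 1 (beside 37.0%). Hal and Gls2, periportal enzymes of amino acid breakdown, fell by 1.04 and 0.86, and Slc1a2, a pericentral glutamate transporter, by 0.75.

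HFCF replicate 1 did not lie with the HF livers for every list. Over the 5352 genes called without it and tested in both fits, it was inside the HF range alone for 3148 (58.8%) and inside the range of the other 5 HFCF livers alone for 559 (10.4%). Its place was also expressed as a share of the shift of log2(CPM + 1), where 0% is the HF mean and 100% the mean of the other 5 HFCF livers; the median over all these genes was -1.3%. For the 20 cholesterol synthesis genes the median was 84.5%. Of the 20, 12 were inside the range of the other 5 alone, 5 inside the HF range alone and 3 between the ranges. The 30 matrix genes had a median of -10.9% (22 inside the HF range alone), the 10 macrophage genes -0.8%, the 9 lipid-associated macrophage genes 17.6% and the 9 antigen presentation genes -1.4%. The 9 female-biased genes had 59.3%. Summed over the list, the lipid-associated macrophage markers gave 293.4 CPM in HFCF replicate 1, 803.2 to 925.7 CPM in the other HFCF livers and 187.6 to 367.7 CPM in HF livers. The same sums for cholesterol synthesis were 2734, 1786 to 2417 and 2988 to 5609 CPM. These shares describe 1 library, and the genes called without it had been picked from the other 11.

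**Figure D4:**
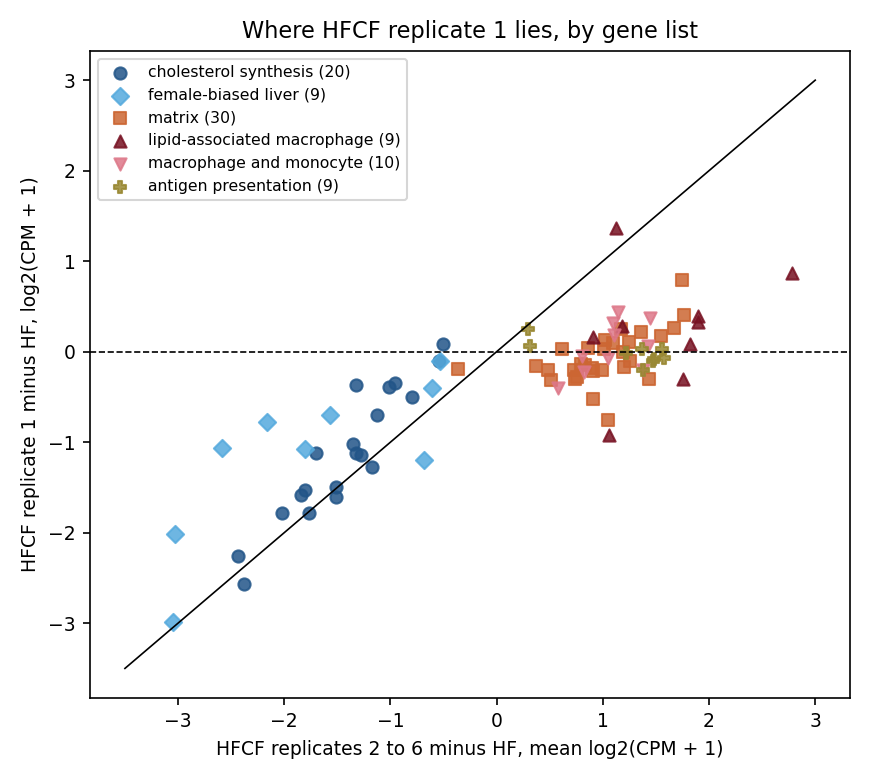
Genes of 6 lists called without HFCF replicate 1, with the mean shift of HFCF replicates 2 to 6 from HF on the horizontal axis and the shift of HFCF replicate 1 on the vertical axis, both in log2(CPM + 1). Points on the solid diagonal moved as far in replicate 1 as in the others and points on the dashed line did not move; cholesterol synthesis genes lie near the diagonal and matrix genes near the dashed line.

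Female controls on the same diets (4 HFCF and 4 HF livers, no library shared with the males) had 4526 of 14701 genes called (30.8%). Of 14272 genes tested in both sexes, 2210 were called in both, which is 69% of the calls in males and 49.7% of those in females, and 2209 had the same direction. Across these genes the log2 fold changes had a Pearson correlation of 0.795, and 0.817 without HFCF replicate 1, given as a description since genes are not independent replicates. Cholesterol synthesis had a median of -0.95 in females with 10 of 20 called lower, beside -1.36 and 20 of 20 in males. The matrix list had medians of 1.76 in females and 0.87 in males, and lipogenesis 0.39 and -0.41. Fasn was at 0.82 in females and -0.38 in males, Cyp7a1 at -0.56 and 0.99, and Igfbp2 at -0.59 and 1.54. Neither these 3 genes nor any member of those lists passed the interaction test, in which 1 gene of 15491 (0.00646%) was called. That gene was Cyp2c55, a cytochrome (ENSMUSG00000025002, chromosome 19, 39007019 to 39042693), with an interaction of -2.91 (SE 0.43, adjusted p 0.0162). Male controls had 3.75 ± 0.762 CPM on HFCF and 2.49 ± 0.624 CPM on HF (n = 6 each), female controls 6.40 ± 1.41 and 0.556 ± 0.381 CPM (n = 4 each), so its rise was smaller in males. Without HF female replicate 1 the count was 1699, and it was 0 without HF female replicate 3 or HFCF female replicate 5.

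**Figure D5:**
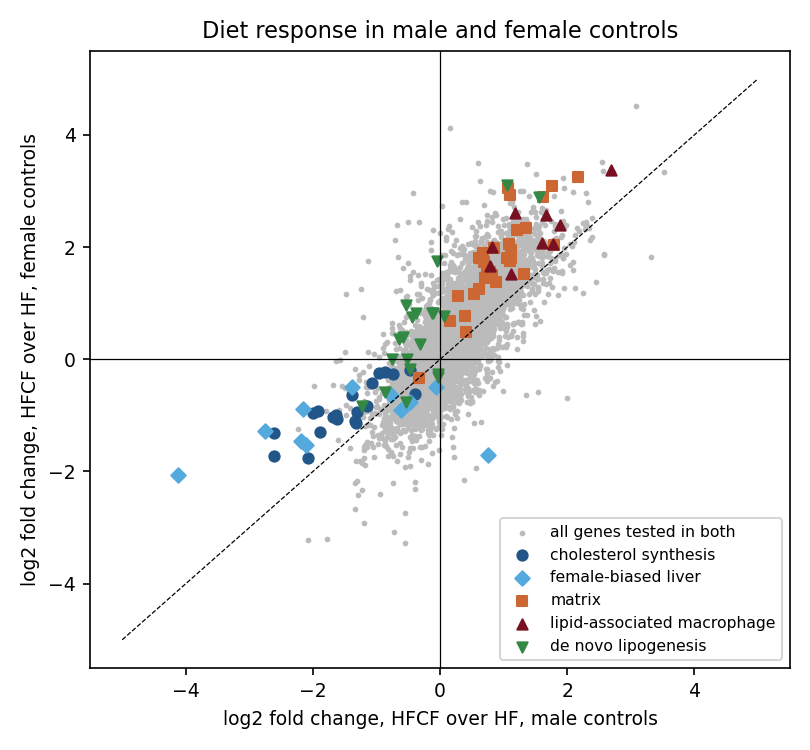
Log2 fold change, HFCF over HF, in male controls (horizontal) and female controls (vertical) for genes tested in both, with 5 gene lists marked and the dashed line where the values are equal. Cholesterol synthesis genes lie at lower left, mostly above the dashed line, most matrix genes and the lipid-associated macrophage genes at upper right, and lipogenesis genes on both sides of 0.

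Males labelled as hepatocyte knockouts of Pparg gave the same contrast in another 12 libraries, with 5962 of 14314 genes called (41.7%). Pparg itself was not lower in them: it was at 57.6 ± 6.47 CPM in labelled knockouts and 33.2 ± 5.56 CPM in controls on HFCF, and at 42.1 ± 14.4 and 35.0 ± 3.98 CPM on HF (n = 6 each), so they are called labelled knockouts here. Whether the reads counted on Pparg include the floxed part is not given in the sources used here, so this level is a limited check of the label. Of 14146 genes tested in both, 2349 were called in both (74.1% of the calls in controls and 39.7% of those in labelled knockouts), 2330 in the same direction. The interaction of diet with the label called 235 of 15096 genes (1.56%), 86 (0.570%) more positive and 149 (0.987%) more negative in controls. Osbpl3, an oxysterol-binding protein, was at 109 ± 18.1 CPM on HFCF and 102 ± 12.3 CPM on HF in controls, and at 87.8 ± 14.8 and 13.4 ± 6.02 CPM in labelled knockouts (interaction -2.61, SE 0.26, adjusted p 2.4e-06). Cidec was also lowest in labelled knockouts on HF. On HFCF and HF it had 166 ± 8.53 and 137 ± 16.2 CPM in controls and 27.7 ± 12.4 and 5.35 ± 0.809 CPM in labelled knockouts (interaction -2.10). Unlike Osbpl3, Cidec stayed far below the controls in labelled knockouts on HFCF as well. Gprc5b, an orphan receptor, fell in controls from 24.9 ± 4.95 to 10.5 ± 2.94 CPM and had 2.01 ± 0.428 and 3.82 ± 1.06 CPM in labelled knockouts. Tgfbr2 had an interaction of -0.94. In the other direction stood Serpina11 (0.99), Cela1, a pancreatic-type elastase (1.96), Nmral1 (0.96) and Arhgef10l (0.52). Serpina11, Cela1 and Arhgef10l were not called in controls (log2 fold changes 0.14, -0.08 and -0.007) and were lower on HFCF in labelled knockouts (-0.85, -2.04 and -0.53). Nmral1 was at 0.48 in controls and -0.48 in labelled knockouts. None of the 20 cholesterol synthesis genes was among the 235. With only 1.56% of all genes called, this count does not show that their response was the same with either label. More negative in controls were 4 of 21 lipid droplet, 4 of 18 NRF2 target, 3 of 20 lipogenesis and 3 of 24 fatty acid oxidation genes (beside 0.987% of all genes). More positive were 3 of 13 hepatokine genes (beside 0.570% of all genes). A further 5 lists had 1 gene each among the 235. The count moved with single libraries, from 119 when HF control replicate 3 was left out to 412 when replicate 2 of that group was.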

How the data were processed

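RNA from whole liver was sequenced in 48 libraries of 10 groups, and 12 were used for the main comparison. Reads on genes were deposited by the authors as raw counts per gene, made per the submitters' processing notes with STAR 2.6.1 and HTSeq 0.6.1 on GRCm38. The FPKM values, log2 fold changes and p-values in the same tables were deposited by the authors as well; their table called 3865 genes, 3205 of the 3225 called here. Library preparation did not keep strand, per the labels' protocols, so strand could not tell apart the reads of overlapping genes. Counts were tested with edgeR 4.0.16 in R 4.3.3 by the quasi-likelihood test (filterByExpr, TMM scaling, Benjamini-Hochberg adjustment over all genes tested, threshold 0.05). CPM are TMM-scaled over the 12 libraries, or over all libraries of an interaction fit, so levels differ slightly between fits. The SE is the log2 fold change divided by the square root of F. DESeq2 1.42.0, other filters and scalings and each library left out were alternatives. The procedure was tested on simulated data. Genes were named by rank among called genes without overlap, by smallest p in each list, and as defining genes; others were named after their values were seen. Members and lists were chosen with earlier results of these data known. No count column lacked a sample (0), and 0 rows named no gene. Replicate numbers did not pair the 12 libraries of the main comparison. Values of a few list members are not reported here, although the list counts include them.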

Additional observations from a re-analysis of the deposited data

Results flagged for a closer look

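Of 330 groups of 6 libraries examined (165 named genes in both diets), 39 held a library farther from the rest than Dixon's critical value allows, and chance alone gives about 1 in 20. HFCF replicate 1 accounted for 24 of them. It was the highest HFCF library, in CPM, for Hal (213), Gls2 (263), Slc10a1 (395), Slc2a5 (10.4), Akr1d1 (159), Serpina1c (523), Ttr (4773), Slco1b2 (1289), Lcat (349), F9 (201), Srebf1 (799.8), Abcg5 (210). It was the lowest for Stab1 (75), Clec9a (4.64), Tgfbr1 (44.5), G6pdx (8.01), Cxcl16 (14.2), Mpeg1 (212), Timp1 (1.02), Ccl6 (12.2), Col3a1 (172), Col1a1 (94.9), Ccr2 (9.34), Cx3cl1 (3.43). HFCF replicate 5 was highest for Lpin1 (97.2) and HFCF replicate 3 for Cyp3a11 (3093). Among HF libraries, replicate 6 was lowest for Fbp1 (894.3), Lcn2 (39), Cd5l (73.9), Ccl6 (8.69), and replicate 2 for Pdgfrb (22.6), Cd34 (1.7). HF replicate 3 was highest for Cxcl16 (19.1), Acta2 (3.62), Ccr2 (12.4), replicate 4 for Srebf1 (668), Abca1 (294), replicate 1 for Fasn (2269) and replicate 5 for Hsd17b13 (979).

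The diet effect differed between groups, by the interaction test of edgeR, for 9 named genes. Cyp2c55 had a diet by sex interaction of -2.91 on the log2 scale. The interactions of diet with the labelled genotype in males were 0.99 for Serpina11, 1.96 for Cela1, 0.96 for Nmral1, 0.52 for Arhgef10l, -2.61 for Osbpl3, -2.10 for Cidec, -0.94 for Tgfbr2 and -2.18 for Gprc5b. Of the exonic length of Serpina11, 40.8% is shared with Gm28577.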

How the results depend on the processing

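The count of 3225 genes was 663 (574 higher, 89 lower) when a change of at least 1 on the log2 scale was also required, and 2217 to 5429 with 1 library left out. It was 3800 by the DESeq2 Wald test, 2964 with at least 10 counts in every library and 3552 with all 4 male groups in 1 fit. Diet by sex gave 134 genes by the Wald test, 0 with at least 10 counts in every library, 0 with all 10 groups in 1 fit, 0 to 1699 with 1 library left out, and 1790 without HFCF male replicate 1 and HF female replicate 1, an alternative added after the data were seen. Diet by labelled genotype gave 610 by the Wald test, 12 with all 10 groups, 75 at an absolute log2 interaction of at least 1, and 119 to 412 with 1 library left out. With a replicate block the counts were 2511, 0 and 127. A block that joined each odd replicate number with the next one gave 3548 for the first. In the male controls, same-numbered HFCF and HF libraries had correlations of deviations of -0.108 to 0.0918, so the numbers did not pair them. Pairing by number with the other groups was not tested. Of 157 named genes called, 143 were called in all 12 fits with 1 library left out. Values changed sign for uncalled genes, Adrb3 (-0.0946 to 0.0143 with 1 library left out) and Clec4f (-0.0222 to 0.171), in each case without HFCF replicate 2 or HF replicate 6. The cause was not tested. Counting error limits genes near 1 CPM most.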

Other observations

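Major urinary protein genes encode pheromone carriers of male liver, and only Mup20 was among the lists, as a male-biased gene. Of 11 tested, Mup21 was the 1 called (log2 fold change -0.70, adjusted p 0.00848 by edgeR's quasi-likelihood test), and reads of these near-identical copies are hard to tell apart. Their summed level was 4557 CPM in HFCF replicate 1, 3349 to 3611 CPM in the other HFCF livers and 3630 to 4611 CPM in HF livers. Mup7 stood at 108 CPM in HFCF replicate 1 and at 0.344 to 3.55 CPM in the other 11 livers. Slco1a1, an organic anion transporter, was at 67.4 CPM there and at 8.4 to 31.2 CPM elsewhere, and Ces2c, a carboxylesterase, at 75.6 CPM beside 19.8 to 34.4 CPM. These genes were chosen after their values were seen.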
